A study of Mus musculus with 12 samples.

Results

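A set of 10 endolysosome and phosphoinositide genes was chosen by function from the 2398 genes of the counts table, by matching Entrez Gene identifiers to mouse symbols. It holds the PIKfyve complex genes Fig4 and Pikfyve, the lysosomal membrane genes Atp6v1h, Ostm1 and Slc29a3, the enzyme and enzyme-tagging genes Fuca2 and Gnptab, and the Rab GTPase genes Rab29, Rab32 and Rab7b. All 10 were found in the table. RNA was read from GFP-positive, propidium iodide-negative cells sorted from the brains of C57BL/6 Ndrg1-EGFP mice, in which the reporter marks oligodendrocytes that make myelin. Both genotypes carried floxed Lmna (Lmnafl/fl), the gene of lamins A and C. KO cells came from CnpCre/+;Lmnafl/fl mice, where the oligodendrocyte gene Cnp drives Cre recombinase from a modified allele, and WT cells came from Cnp+/+;Lmnafl/fl mice. Besides Lmna recombination, then, the genotypes differ by Cre itself and by the loss of an intact Cnp allele in KO. The age is given as postnatal day 60 in one label field and as 8 weeks in another. Each genotype had 3 biological replicates with 2 libraries each, and the libraries of a replicate were summed.

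The lysosome is the acid compartment in which cells break down lipids, proteins and glycans, and in oligodendrocytes late endosomes and lysosomes also hold and deliver myelin proteins such as the proteolipid protein. The lipid kinase PIKfyve, held in a complex with the scaffold Vac14 and the phosphatase Fig4, makes the low-abundance phosphoinositide that controls the size and turnover of these organelles. Loss of Fig4 in mice causes enlarged vacuoles and poor myelination.

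Summed counts ranged from 3694551 to 6093336 per replicate. The 2 libraries of a replicate were close to sampling noise (chi-square per degree of freedom 1.00 to 1.06), against 38.1 to 140.5 between replicates of a genotype. The genes with a symbol lie on chromosome 1 (1358 genes) and on a part of chromosome 10 (868 genes), so these totals and the CPM made from them refer to a part of each library. Genes elsewhere, Lmna and Cnp among them, are not analysed here. Mature oligodendrocyte markers were represented by Adamts4 and Nfasc, 2 of 21 on their list, whose summed level was 14783, 15586 and 17097 CPM (counts scaled by the effective library size over the genes of the table) in KO replicates 1 to 3 and 11887, 10321 and 11902 CPM in WT replicates 1 to 3. The microglia and leukocyte markers in the table, 7 of 31 and led by Fcer1g and Fcgr3, summed to 235, 411 and 97.9 CPM in KO replicates 1 to 3 and 197, 97.1 and 121 CPM in WT replicates 1 to 3. The astrocyte markers, 3 of 12 and led by Gja1 and Gpr37l1, summed to 1095, 742 and 484 CPM in KO and 799, 409 and 356 CPM in WT. The endothelial, mural and fibroblast markers, 9 of 22 with 8 tested and led by Fn1 and Dcn, summed to 923, 442 and 307 CPM in KO and 602, 630.2 and 126 CPM in WT. Each sum overlapped between genotypes except that of the mature oligodendrocyte markers. The neuronal markers Scg2 and Syt1 summed to 10.5, 46.9 and 10.97 CPM in KO and 7.03, 33.8 and 247 CPM in WT. The progenitor markers Neu4 and Tnr summed to 12.2, 95.6 and 60.6 CPM in KO and 35.2, 0.497 and 36.6 CPM in WT. No marker in the table was at 0 in every replicate.

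The 4 members on chromosome 1 and the 6 on chromosome 10 lie apart from each other, except for a pair of Rab genes. Rab7b (chr1:131688681-131715443, mm10) and Rab29 (chr1:131867210-131872887) are on the plus strand with 152 kb and 4 annotated genes between them. Also on chromosome 1 are Atp6v1h (chr1:5082978-5163213, plus strand) and Pikfyve (chr1:65186640-65278696, plus strand). On chromosome 10 the plus strand holds Fuca2 (chr10:13500570-13519035), Ostm1 (chr10:42678916-42702462) and Gnptab (chr10:88379134-88447324), and the minus strand Rab32 (chr10:10545039-10558207), Fig4 (chr10:41188172-41303241) and Slc29a3 (chr10:60712072-60752849). The RefSeq promoter table for GRCm38.p6, the assembly also called mm10, held an entry for 8 of the 10 members. Printed here are the 250 bases before the RefSeq promoter start of Slc29a3 (chr10:60752783-60753032, minus strand) and of Fig4 (chr10:41303242-41303491, minus strand). These were the member whose replicates differed most clearly between genotypes and the member that varied least. The promoter start of Slc29a3 lies inside the gene span given above, so a part of its window does too. Capitals mark each CpG.
Slc29a3: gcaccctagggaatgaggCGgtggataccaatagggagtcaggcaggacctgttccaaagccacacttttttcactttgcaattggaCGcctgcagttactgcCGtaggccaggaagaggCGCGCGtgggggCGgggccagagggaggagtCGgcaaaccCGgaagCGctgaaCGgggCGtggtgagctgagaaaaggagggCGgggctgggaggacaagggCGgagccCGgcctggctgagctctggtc
Fig4: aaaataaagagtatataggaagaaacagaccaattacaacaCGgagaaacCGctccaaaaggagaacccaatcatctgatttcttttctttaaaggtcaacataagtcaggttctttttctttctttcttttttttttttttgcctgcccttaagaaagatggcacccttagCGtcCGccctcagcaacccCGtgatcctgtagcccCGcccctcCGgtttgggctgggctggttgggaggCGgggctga
The Slc29a3 window holds 15 CpG and the Fig4 window 8, beside a median of 15 over the promoters of the genes tested and 6 over all promoters. Among the 8 members with an entry, Gnptab had the most, 33, and Fuca2 the fewest, 3. The E-box CACGTG, the palindromic core of the element through which TFEB acts on many lysosomal genes, was searched from 250 bases before to 50 after each start. It was found in 0 of these 8 members, in 13.2% of tested genes with a promoter entry and in 8.09% of all genes with one. Since the longer TCACGTGA and the full CLEAR element contain this core, they were also in 0 of the 8, beside 2.32% and 0.947% of tested genes with an entry. All these motifs read the same on both strands.

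Read per length, the members spanned more than an order of magnitude in these cells. Per kb of annotated exon, Atp6v1h was the highest at 685 ± 62.0 CPM per kb in KO and 697 ± 93.8 CPM per kb in WT (SD, n = 3). Rab32 was the lowest at 13.2 ± 6.21 CPM per kb in KO and 8.74 ± 0.238 CPM per kb in WT. Between them the mean over the 6 replicates fell in the order Ostm1 (389.9 CPM per kb), Gnptab (361), Slc29a3 (281), Rab7b (211), Fig4 (154), Rab29 (152), Fuca2 (53.7) and Pikfyve (23.5). The replicate ranges of adjacent genes overlapped from Ostm1 down to Rab29. Compared within each replicate, Slc29a3 was above Rab7b in all 6. Ostm1 was above Gnptab, Gnptab above Slc29a3 and Rab7b above Fig4 in 5 of 6, and Fig4 above Rab29 in 3 of 6. Genes further apart in that stretch could be separate in range, as Ostm1 lay wholly above Slc29a3, and Slc29a3 wholly above Fig4 and Rab29. Atp6v1h above Ostm1, Rab29 above Fuca2, Fuca2 above Pikfyve and Pikfyve above Rab32 held without overlap. Dividing by the longest transcript in place of all exons exchanged Fig4 and Rab29 and no other neighbours. Lengths are those of GENCODE M21, since the sources used here do not give the annotation used in counting.

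**Figure D1:**
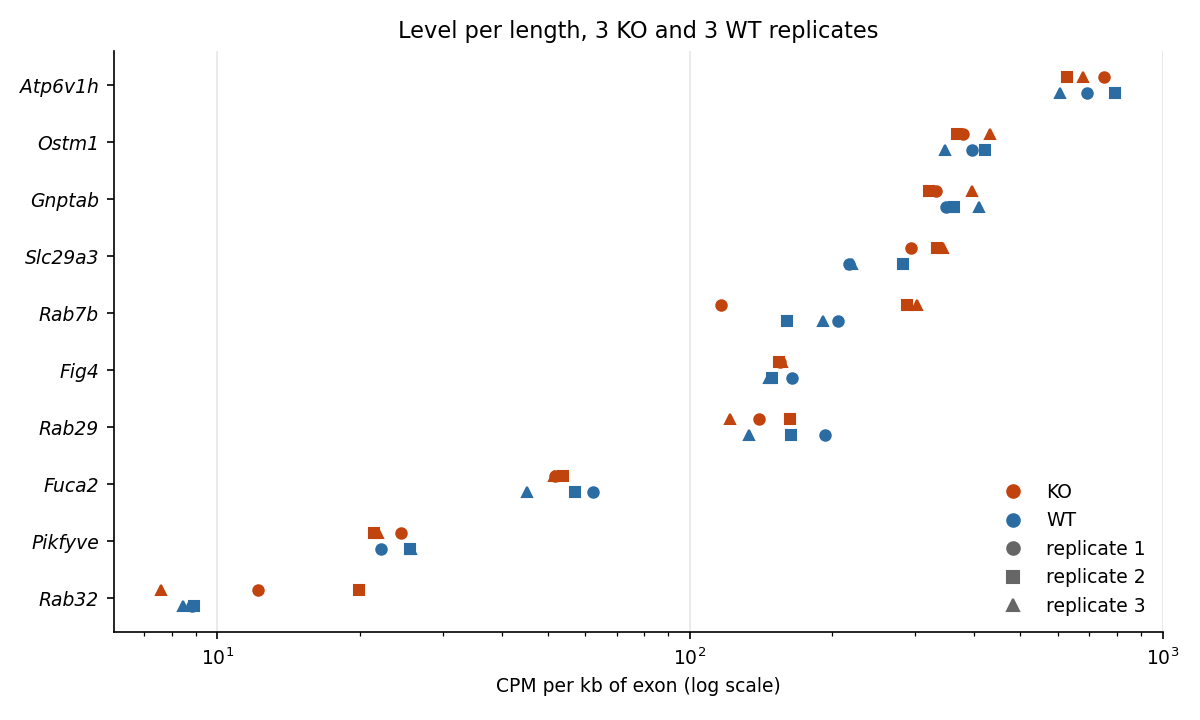
Level of each gene in CPM per kb of exon, on a log axis, for the 3 KO replicates (orange) and the 3 WT replicates (blue). Atp6v1h stands apart at the top, between 607 and 794 CPM per kb, and Rab32 at the bottom, between 7.61 and 19.9 CPM per kb.

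The comparison of KO with WT asks which transcripts differ when Lmna is recombined in oligodendrocytes. At an adjusted p under 0.05 in edgeR's quasi-likelihood test, 0 of the 10 members were higher and 0 lower in KO, as were 0% of the 1484 genes tested. All 10 members passed the filter on low counts. At an unadjusted p under 0.05 there was 1 member, Slc29a3, beside 59 genes or 3.98% of those tested in either direction and 2.7% higher in KO. It was also the 1 member whose replicates did not overlap between genotypes, beside 8.49% of the genes tested in either direction, 4.45% higher and 4.04% lower in KO. Log2 fold changes, KO over WT, were above 0 in 5 members, with a median of -0.0050, against a median of -0.0064 over all genes tested. The 95% interval of 6 members lay within 0.5 log2 units of no change, as it did for 37.7% of all genes tested. The members were more abundant, with a median of 730 CPM against 151 CPM over all genes tested. Their median SE was smaller, 0.13 against 0.21, so the 2 shares are not of like genes. In sorted bulk cells, fewer cells of a type and less RNA per cell cannot be told apart.

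**Figure D2:**
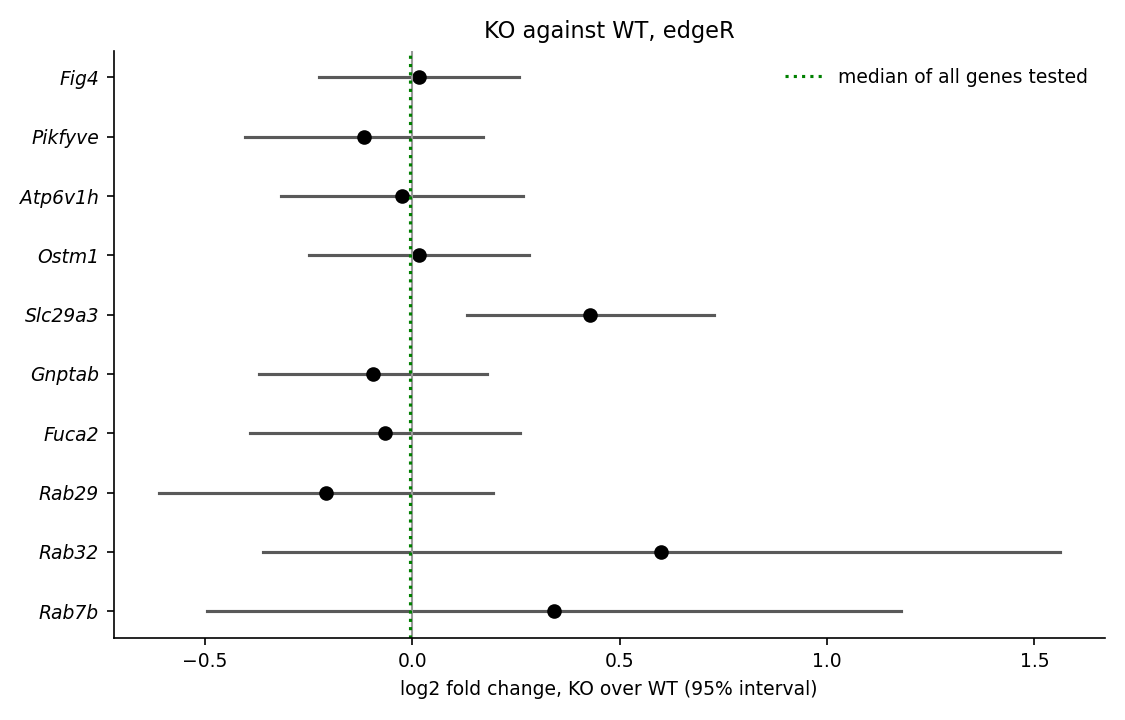
Log2 fold change of each gene, KO over WT, from edgeR (points) with its 95% interval (lines), and the median of all genes tested (dotted). The interval of Slc29a3 runs from 0.13 to 0.73, and those of the other 9 genes include 0.

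Fig4 and Pikfyve overlapped between genotypes, with means closer than the larger of the SDs. Fig4, the phosphatase of the complex, had 508, 507 and 514 CPM in KO replicates 1 to 3, against 540.2, 489 and 483 CPM in WT replicates 1 to 3. The KO values lie inside the WT range, and only 1.35% of the genes tested had a smaller spread of log2 CPM within genotypes. For Fig4 the log2 fold change was 0.016 ± 0.11 (SE), with a 95% interval from -0.22 to 0.26, or 0.856-fold to 1.19-fold (edgeR adjusted p = 0.994). Pikfyve, the lipid kinase, had 279, 244 and 249.9 CPM in KO, against 254, 291 and 293 CPM in WT. The groups overlap through KO replicate 1 and WT replicate 1. For Pikfyve it was -0.12 ± 0.13 (SE), with a 95% interval from -0.40 to 0.17 (edgeR adjusted p = 0.994). Per kb of exon, Fig4 exceeded Pikfyve 6.33, 7.22 and 7.14 times in the KO replicates and 7.40, 5.83 and 5.73 times in the WT replicates. This ratio did not separate the genotypes (exact permutation test, two-sided p = 0.4, where 3 against 3 cannot give less than 0.1). The exons of Pikfyve total 11405 bases, more than those of any other member, which enters this ratio directly.

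The genes with a pattern most like these over the 6 replicates were found by the root mean square difference of log2 CPM after centring each gene on its own mean. Nearest to Fig4 were Cox5b, a subunit of cytochrome c oxidase, Ascc1 and Gtf3c6, at differences of 0.037, 0.042 and 0.046, where the median over genes tested was 0.24. Nearest to Pikfyve were Ddx18, an RNA helicase, Stk16 and Glrx2, at 0.035, 0.041 and 0.042, where the median was 0.25. A steady gene is near other steady genes by this measure.

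**Figure D3:**
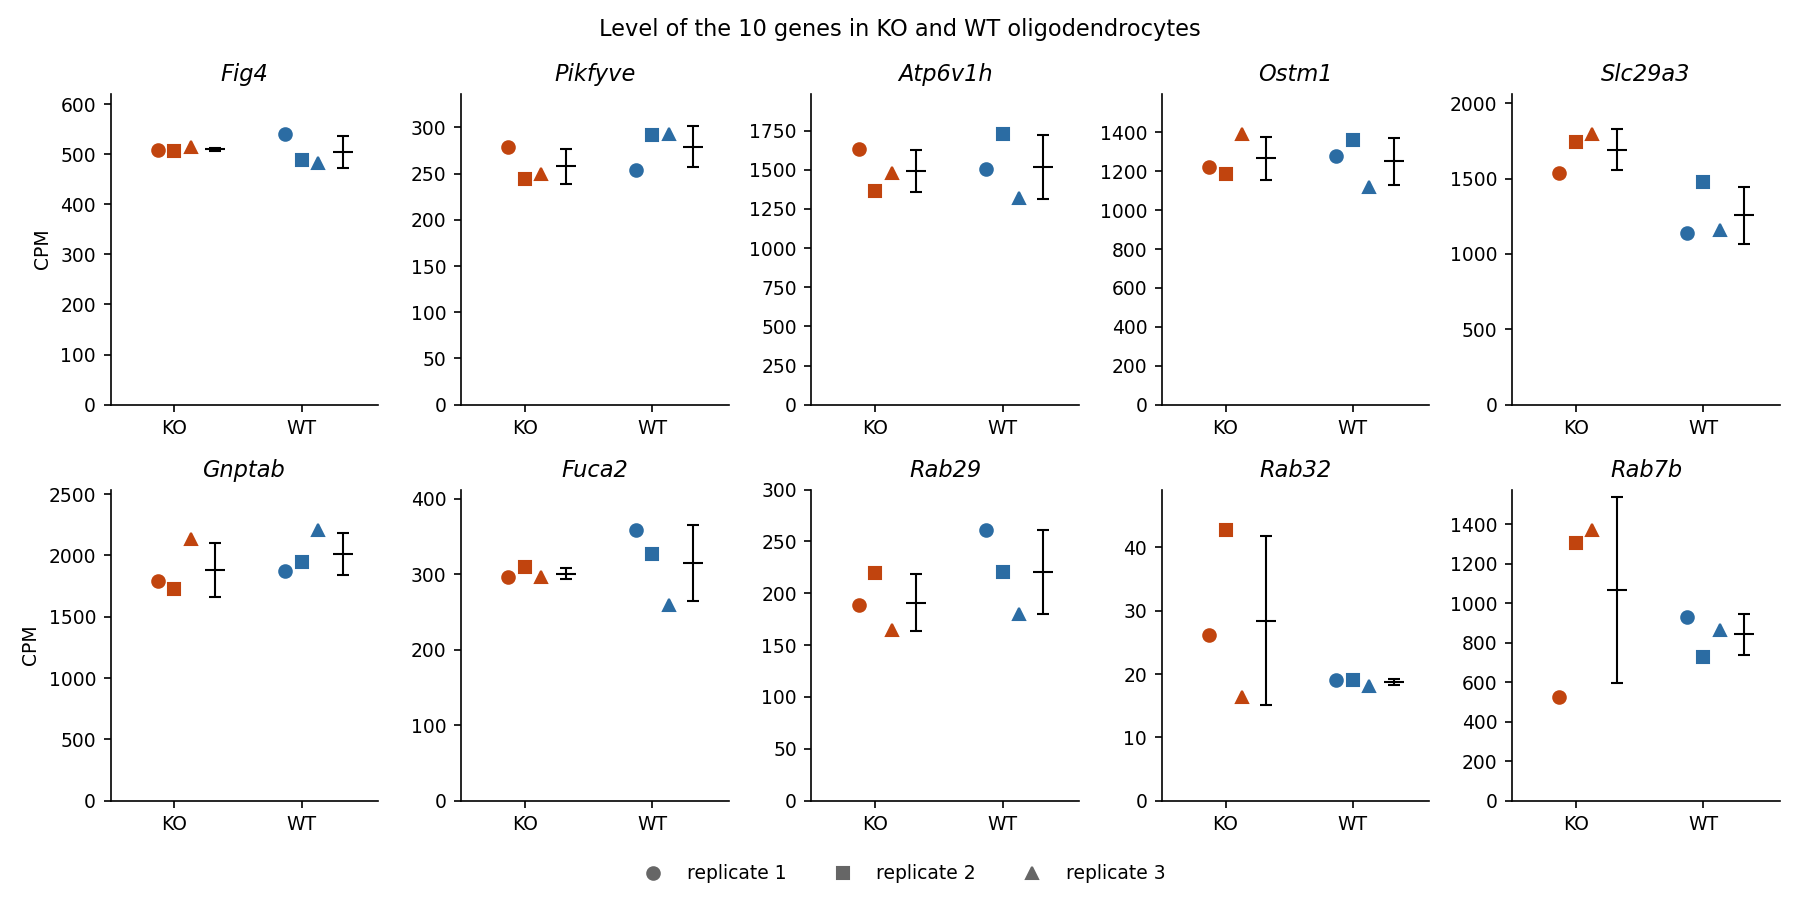
CPM of each gene in the 3 KO replicates (orange) and the 3 WT replicates (blue), with the mean and SD of each genotype in black and each axis starting at 0. Slc29a3 is the 1 gene in which all KO points lie above all WT points, and Rab7b and Rab32 have the widest KO spread.

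Slc29a3, the nucleoside transporter ENT3 of the lysosomal membrane, was the member with the clearest difference. It had 1538, 1743 and 1796 CPM in KO replicates 1 to 3, against 1137, 1477 and 1156 CPM in WT replicates 1 to 3. Every KO replicate lay above every WT replicate, the closest pair being KO replicate 1 and WT replicate 2. The log2 fold change of Slc29a3 was 0.43 ± 0.13 (SE), with a 95% interval from 0.13 to 0.73, or 1.095-fold to 1.66-fold. The unadjusted p was 0.0101, the 13th smallest of the 1484 genes, and the difference did not pass after adjustment over all genes (edgeR adjusted p = 0.927). The exact permutation test gave a two-sided p of 0.1, the smallest it can give. DESeq2 on the same replicates gave an adjusted p of 0.346, with 0.354% of genes called. Only without WT replicate 2 did DESeq2 call Slc29a3 (log2 fold change 0.58, adjusted p = 0.0127, with 0.457% of genes called), while the adjusted p over the other 5 fits without a replicate lay between 0.378 and 0.999. The markers Adamts4 and Nfasc, given above, also had every KO replicate above every WT replicate, and their part in the Slc29a3 difference was not tested. The sums of the other cell type markers, given above, overlapped between genotypes, but many of these genes had a log2 fold change above 0. It was above 0 in 7 of 7 microglia and leukocyte markers, 3 of 3 astrocyte markers and 2 of 2 progenitor markers. The same held for 5 of 8 endothelial, mural and fibroblast markers and 0 of 2 neuronal markers, beside 49.5% of all genes tested. The part of these cell types in the Slc29a3 difference was not tested either.

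The other genes of the lysosomal membrane differed by less than the spread between replicates. Atp6v1h, the regulatory subunit H of the proton pump that acidifies the lysosome, had 1632, 1363 and 1477 CPM in KO, against 1504, 1728 and 1321 CPM in WT. Its groups overlap over most of their range, with a log2 fold change of -0.026 ± 0.13 (SE) and a 95% interval from -0.32 to 0.27 (edgeR adjusted p = 0.994). Ostm1, the partner protein of the chloride-proton exchanger encoded by Clcn7 and the gene mutated in grey-lethal mice, had 1223, 1184 and 1391 CPM in KO, against 1277, 1359 and 1121 CPM in WT. Its groups also overlap, with a log2 fold change of 0.016 ± 0.12 (SE) and a 95% interval from -0.25 to 0.28 (edgeR adjusted p = 0.994).

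The enzyme and enzyme-tagging genes were slightly lower in KO by their means, within the spread. Gnptab, which encodes catalytic subunits of the transferase that begins the mannose 6-phosphate tag of lysosomal enzymes, had 1789, 1728 and 2133 CPM in KO, against 1877, 1948 and 2207 CPM in WT. Replicate 3 was the highest of its genotype in both groups, and the groups overlap. For Gnptab the log2 fold change was -0.094 ± 0.12 (SE), with a 95% interval from -0.37 to 0.18 (edgeR adjusted p = 0.994). Fuca2, an alpha-L-fucosidase that removes fucose from glycans, had 297, 310 and 297 CPM in KO, against 359, 328 and 259 CPM in WT. The KO values of Fuca2 lie inside the WT range. Its log2 fold change was -0.066 ± 0.14 (SE), with a 95% interval from -0.39 to 0.26 (edgeR adjusted p = 0.994).

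The 3 Rab genes varied most among replicates. Rab7b, a GTPase of late endosomes and the trans-Golgi network, had 527, 1303 and 1370.0 CPM in KO replicates 1 to 3, against 931, 728 and 866 CPM in WT replicates 1 to 3. KO replicate 1 was below all WT replicates and KO replicates 2 and 3 were above all of them, a 2.60-fold range within KO and a 1.28-fold range within WT. In the fit of all replicates the log2 fold change was 0.34 ± 0.35 (SE), with a 95% interval from -0.49 to 1.18 (edgeR adjusted p = 0.994). Without KO replicate 1 the log2 fold change of Rab7b was 0.66 (edgeR unadjusted p = 0.00134, adjusted p = 0.689), and DESeq2 without that replicate called it (log2 fold change 0.68, adjusted p = 0.00456, with 0.355% of genes called). Leaving out the only KO value below WT fixes that separation in advance, so no conclusion is drawn from the call. With any other replicate left out, the edgeR log2 fold change lay between 0.12 and 0.42. The DESeq2 adjusted p in those cases was 0.992 to 0.999. The cause of the low value in KO replicate 1 was not tested. That replicate also had the highest sum of astrocyte markers, 1095 CPM against 742 and 484 CPM in KO replicates 2 and 3, and of endothelial, mural and fibroblast markers, 923 CPM against 442 and 307 CPM. In WT the astrocyte sum went the other way. WT replicate 1 had the highest, 799 CPM against 409 and 356 CPM, and also the highest Rab7b. The endothelial, mural and fibroblast sum was highest in WT replicate 2, 630.2 CPM against 602 and 126 CPM, where Rab7b was lowest of WT. Like Rab7b, the mature oligodendrocyte sum rose from KO replicate 1 to 3 (14783, 15586 and 17097 CPM). In WT both were lowest in replicate 2, but that sum was highest in replicate 3. The progenitor sum was also lowest in KO replicate 1 and WT replicate 2. The microglia and leukocyte sum was lowest in KO replicate 3 and WT replicate 2. The part of these cell types in the Rab7b values was not tested.

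Rab32, a GTPase of lysosome-related organelles such as melanosomes, was scarce, with 26.2, 42.7 and 16.3 CPM in KO, against 19.0, 19.1 and 18.2 CPM in WT. These levels rest on 92, 270 and 79 counts in KO and 100, 77 and 101 counts in WT. KO replicate 2 stood above all other replicates and KO replicate 3 below them, while the WT replicates were almost equal. The log2 fold change of Rab32 was 0.60 ± 0.42 (SE), with a 95% interval from -0.36 to 1.56 (edgeR adjusted p = 0.994), and without KO replicate 2 it was 0.18. Within KO, Rab32 and the microglia and leukocyte markers had the same order of replicates, highest in replicate 2 and lowest in replicate 3. Within WT, Rab32 stayed between 18.2 and 19.1 CPM, while those markers summed to 197, 97.1 and 121 CPM. Whether Rab32 reads came from those cells was not tested. Rab29, a GTPase that recruits the kinase LRRK2 to membranes, had 189, 219 and 164 CPM in KO, against 261, 220.3 and 180.3 CPM in WT. The groups overlap, with a log2 fold change of -0.21 ± 0.18 (SE) and a 95% interval from -0.61 to 0.19 (edgeR adjusted p = 0.994).

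**Figure D4:**
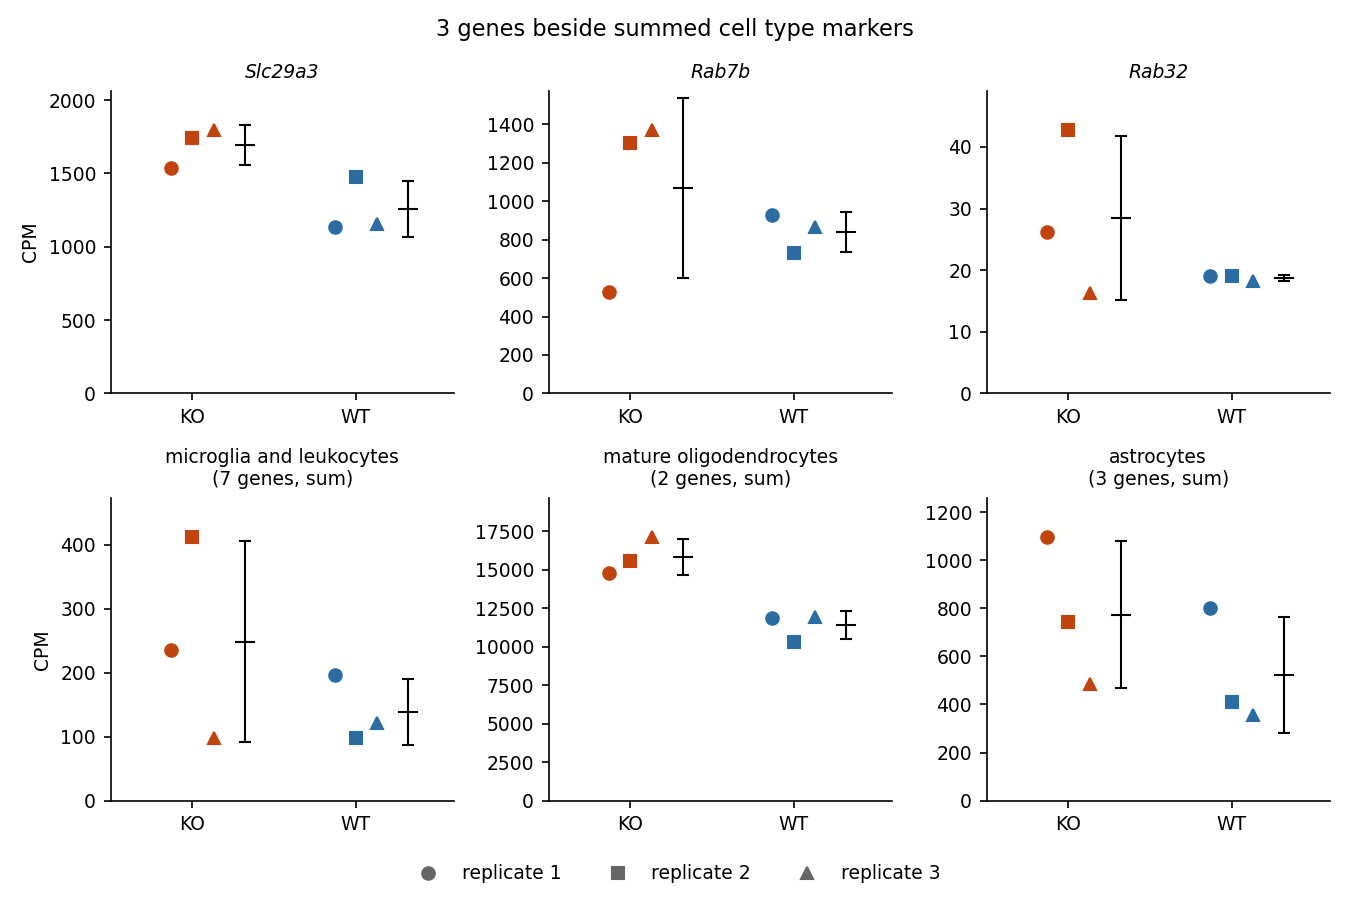
CPM of Slc29a3, Rab7b and Rab32 (top) and summed CPM of marker genes of 3 cell types (bottom) in the 3 KO replicates (orange) and 3 WT replicates (blue), with mean and SD in black. KO replicate 2 has the highest microglia and leukocyte sum, 411 CPM, and the highest Rab32, while KO replicate 1 has the highest astrocyte sum, 1095 CPM, and the lowest Rab7b. Among WT replicates, Rab32 stays between 18.2 and 19.1 CPM, and replicate 1 has both the highest astrocyte sum, 799 CPM, and the highest Rab7b.

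Reads of these genes could be told from those of other genes over nearly all of their length. In GENCODE M21, 50-base windows, the length of the reads, were shared with a transcript of another gene over 0% of the longest transcript of Fig4, Atp6v1h, Rab29, Rab32 and Rab7b. The largest shares were 3.96% for Ostm1, 3.15% for Gnptab and 2.49% for Slc29a3. No window was shared between members. Windows were matched on either strand, so opposite-strand overlap enters these shares too. For Ostm1 all 117 shared windows were with the antisense gene Gm15200. The overlaps given next are over all annotated exons and are not a further source beside those windows. Whether counting used strand is not stated in the labels. Ostm1 shares 208 exonic bases (6.44%) with the antisense gene Gm15200, and Atp6v1h shares 127 (5.84%) with the protein-coding gene Rgs20, whose own level averaged 3.73 CPM. Gnptab shares 158 exonic bases (2.93%) with Gm26546 and 107 (1.99%) with Gm16235.

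**Figure D5:**
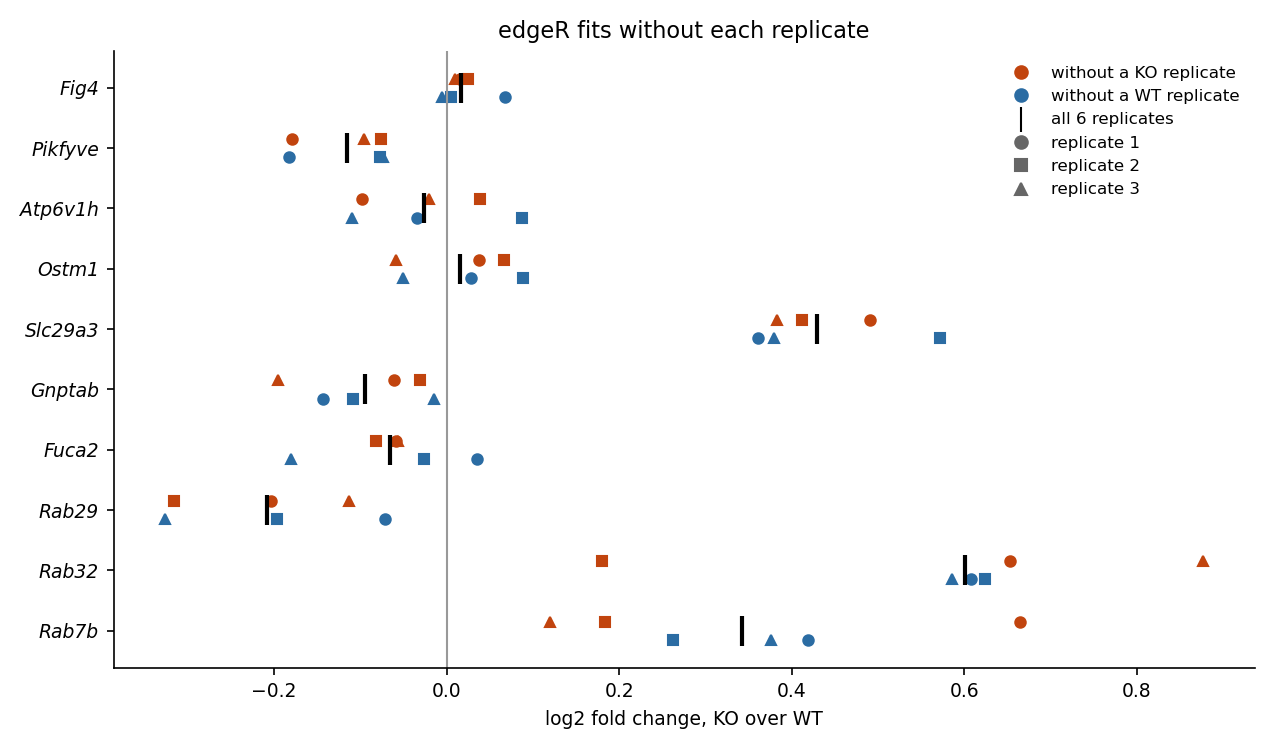
Log2 fold change of each gene, KO over WT, in edgeR fits without each KO replicate (orange) or each WT replicate (blue), beside the fit of all 6 replicates (black bar). Slc29a3 stays between 0.36 and 0.57, while Rab7b ranges from 0.12 to 0.66 and Rab32 from 0.18 to 0.88.

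Beside the members, 10 lists of genes of the same organelles and lipids were read from the same fit. Of their 497 genes, the members included, 62 were in the table and 57 were tested, with 0 genes called higher or lower by edgeR after adjustment and a median log2 fold change of 0.0066. The unadjusted p from edgeR was under 0.05 in 3 of the 57, of which 1 is Slc29a3, beside 59 of the 1484 genes tested (3.98%). Another is Neu2, which is near the floor and passed the filter on low counts only through KO.

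Genes that make or remove phosphoinositides were among them. The 3 phosphoinositide kinase genes tested, Pikfyve included, had a median log2 fold change of -0.0089, with Pik3c2b at 1191 ± 242 CPM in KO and 1199 ± 285 CPM in WT, and Pip5k1c at 289 ± 63.8 CPM in KO and 278 ± 81.2 CPM in WT (SD, n = 3). The wider list of phosphoinositide and inositol phosphate phosphatases and lipases, 7 genes with Fig4 included, had a median of -0.14. Their most abundant member was Plcl1, a phospholipase C-like protein, at 2683 ± 496 CPM in KO and 2961 ± 61.1 CPM in WT, followed by Tns1 at 265 ± 121 CPM in KO and 320.2 ± 105 CPM in WT. Of 10 genes of phosphoinositide-binding endosomal proteins in the table, 9 were tested and had a median of -0.054. Snx3, a sorting nexin that binds endosomal lipid, stood at 3189 ± 215 CPM in KO and 3310.3 ± 523 CPM in WT, and Phlda3 at 4406 ± 230.4 CPM in KO and 4345 ± 856 CPM in WT. Each of these pairs of means differed by less than the larger of its SDs.

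Genes of the lysosome itself included some of the most abundant transcripts in the table. In the list of lysosomal membrane proteins and transporters, 10 of 10 tested genes had a log2 fold change above 0, Ostm1 and Slc29a3 included, with a median of 0.13 and a range from 0.016 to 0.73, and 0 passed. Over all genes tested, 734 of 1484 (49.5%) were above 0. Of the 57 listed genes tested, 30 were above 0, and 0 of 3 in the list for mannose 6-phosphate and enzyme sorting. Some of the lysosomal membrane genes lay well within their SE, as did Ostm1 and Tmbim1, each at 0.016 ± 0.12 (SE). The list was written with the Slc29a3 result known, and no test was run on it. Tmem63a, a mechanosensitive ion channel, stood at 12690.0 ± 488 CPM in KO and 12285 ± 595 CPM in WT (SD, n = 3), and Tmbim1 at 11606 ± 847 CPM in KO and 11476 ± 1068 CPM in WT. The highest log2 fold change of that list was that of Slc11a1, a metal transporter of phagocytes named here after its values were seen, at 13.96, 28.3 and 9.72 CPM in KO and 16.3, 5.47 and 9.54 CPM in WT (edgeR adjusted p = 0.994). Its highest value, like that of the microglia and leukocyte markers, was in KO replicate 2, and their part in it was not tested. In the list of lysosomal enzymes and activators, 5 of 6 genes were tested, Fuca2 included, with a median of 0.24. These include Neu2 (log2 fold change 4.26), which passed the filter on low counts only through KO. They also include Neu4 (1.34), which is a progenitor marker here too and was at 0 CPM in WT replicate 2. No weight is thus placed on this median. Psap, the precursor of the saposins that aid sphingolipid breakdown, stood at 15564 ± 3188 CPM in KO and 13216 ± 2937 CPM in WT, and Creg1 at 434 ± 88.4 CPM in KO and 432 ± 44.4 CPM in WT. The list of V-ATPase subunits and accessory proteins also held Tmem9, at 223 ± 40.7 CPM in KO and 227 ± 42.9 CPM in WT. Ncoa7, of the same list, stood at 86.3 ± 20.01 CPM in KO and 76.0 ± 8.61 CPM in WT. With Atp6v1h the median of the 3 tested of 4 was -0.022. The gene not tested, the subunit gene Atp6v1g3, was at 0 CPM in every replicate.

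The trafficking lists gave values of the same kind. The 3 tested genes, of 4, for mannose 6-phosphate and enzyme sorting had a median of -0.11, with Vps26a, a retromer subunit, at 1128 ± 134 CPM in KO and 1241 ± 124 CPM in WT, and Ap3d1, a subunit of the AP-3 adaptor, at 879 ± 49.1 CPM in KO and 948 ± 121 CPM in WT (SD, n = 3). The 3 genes of lysosome-related organelles, tethering and lysosome movement had a median of -0.081, with Arl8a, a GTPase that links lysosomes to kinesin, at 3528 ± 522 CPM in KO and 3878 ± 817 CPM in WT, and Tgfbrap1 at 476 ± 32.5 CPM in KO and 439.5 ± 107 CPM in WT. The 5 Rab genes tested of 6, 3 of them members, had a median of 0.34, of which Rab23 stood at 489 ± 22.7 CPM in KO and 505 ± 43.8 CPM in WT, and Rab36 at 40.9 ± 19.1 CPM in KO and 32.4 ± 16.6 CPM in WT. The 9 regulators and effectors of Rab proteins had a median of -0.033. Rab3gap2 stood at 973 ± 125 CPM in KO and 970.0 ± 29.1 CPM in WT, and Rabif at 668 ± 85.9 CPM in KO and 684 ± 77.6 CPM in WT.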

How the data were processed

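The deposited values are raw read counts per gene, with a column for each library. The submitters' processing notes name featureCounts, HISAT2, fastp, DESeq2 1.38.1, SAMtools 1.4.1 and the build mm10. The sources used here do not give the annotation or the treatment of strand and multi-mapped reads. Of 2398 complete lines, 2226 matched a RefSeq symbol, and 172 with 0.552% of the counts did not. A line cut short was left out.

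Libraries were summed within a biological replicate, giving 3 KO and 3 WT samples, and p-values measure the spread between these. The genotypes were tested with edgeR 4.0.16 in R 4.3.3 (TMM factors from 0.951 to 1.05, filterByExpr, robust quasi-likelihood fit, Benjamini-Hochberg adjustment at 0.05 over 1484 genes). SE is the log2 fold change over the square root of F. CPM are scaled by TMM and refer to the genes of the table. Exact permutations used log2(CPM + 1). The fit was tested on simulated counts. Alternatives were DESeq2 1.42.0, limma-voom (limma 3.58.1), other size factors and filters, single libraries, a replicate block and leaving out replicates. DESeq2 without each replicate was added after seeing the data.

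The members and lists were chosen with earlier results of these data known. All members are named. From a list, called genes are named, or, with fewer than 2 of these, its 2 most abundant tested genes that are not members, and of each marker list the 2 of highest CPM.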

Additional observations from a re-analysis of the deposited data

How the results depend on the processing

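The counts of 0 genes higher and 0 lower in KO, over all genes and over the members, held with other size factors, other filters, limma-voom, either library of a replicate used singly and in each edgeR fit without a replicate. DESeq2 on the 6 replicates called 6 genes higher and 1 lower, none of them a member, and without a replicate it called between 0 (KO replicate 2) and 11 (KO replicate 3) higher and between 0 and 4 (WT replicate 1) lower. The count without KO replicate 2 went to 0, and without WT replicate 3 to 3 higher and 2 lower. Among the members these fits called between 0 and 1 higher, Rab7b without KO replicate 1 and Slc29a3 without WT replicate 2. The cause was not tested. Leaving out a replicate turned the sign of 4 members close to no change. Over these edgeR and DESeq2 fits the log2 fold change lay between -0.0078 and 0.078 for Fig4, -0.11 and 0.091 for Atp6v1h, -0.059 and 0.092 for Ostm1, and -0.18 and 0.046 for Fuca2. Slc29a3 had an unadjusted p under 0.05 in all 6 edgeR fits without a replicate (0.00186 to 0.0407) and in all 9 other alternatives (0.00332 to 0.0135). Its adjusted p was 0.786 or higher in those edgeR fits and 0.346 or higher in those alternatives. All reuse the same 6 replicates, which do not overlap between genotypes for this gene, so they are not independent tests. Same-numbered KO and WT replicates had correlated deviations of 0.0033, -0.33 and 0.15 across genes, which are not all over 0.1, so the numbers were not taken to pair the samples. With the replicate block, 0 genes were called higher and 0 lower, members included. Depth limits Rab32 most among the members, at 77 to 270 counts per replicate.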

Other observations

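Among the listed genes that are not members, 47 were tested and 4 had replicates that did not overlap between genotypes, or 8.51%, beside 8.49% of all genes tested. They were chosen after their values were seen, and 0 of them passed the edgeR test over all genes. Inpp4a, a phosphatase that acts on endosomal and plasma membrane phosphoinositides, had 50.7, 48.0 and 50.7 CPM in KO replicates 1 to 3, against 31.5, 30.1 and 32.4 CPM in WT replicates 1 to 3. Its log2 fold change was 0.67 ± 0.25 (SE), with an unadjusted p of 0.026 and an adjusted p of 0.940 in edgeR. The replicates of Inpp4a were close within each genotype. Inpp5d, a phosphatase best known from blood cells and microglia, had 13.96, 15.04 and 13.9 CPM in KO, against 10.6, 8.94 and 12.97 CPM in WT (edgeR adjusted p = 0.994). Tbc1d32, named for a domain of Rab GTPase-activating proteins, was lower in every KO replicate, at 63.2, 63.6 and 73.2 CPM in KO, against 78.9, 80.7 and 95.3 CPM in WT (edgeR adjusted p = 0.994). Neu2, a sialidase, had 3.70, 2.69 and 2.69 CPM in KO and 0.380, 0 and 0 CPM in WT, with an edgeR unadjusted p of 0.0091 and an adjusted p of 0.927. Neu2 lies near the floor and passed the filter on low counts only through KO, where it is high. Its separation and p-value were thus partly fixed by that filter, and it adds no weight to the counts of genes given above.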
